A study of Mus musculus with 4 samples.

Results

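The Kruppel-like factors (KLFs) described here are 10 genes, Klf2, Klf3, Klf4, Klf5, Klf6, Klf7, Klf9, Klf10, Klf13 and Klf16, taken by gene symbol from the authors' deposited table. They make up 10 of its 25177 gene symbols and 12 of its 40739 transcript rows. They are also the 10 KLF genes with the highest mean level among 17 in the table. The genes were picked with their levels and fold changes in this comparison known, so those values are given as a description, with no test of the group, and support nothing beyond themselves. Nuclear RNA had been sequenced from NIH-3T3, a long-established fibroblast line of mouse embryos. The cells of both groups stably carried an H2B-mCherry reporter, the rtTA3G transactivator and a CDX2 gene under the TRE3G promoter, which doxycycline switches on. In the doxycycline group, 2 libraries came from cells given 500 ng/ml doxycycline for 6 h (a second protocol field gives that dose per microlitre). In the solvent group, 2 libraries came from cells given solvent alone for 6 h. Whether the line is 1 clone, and whether replicates were separate cultures, is not given in the labels, so errors may be technical only. Both groups carry the transgene, so the effects of CDX2 and of doxycycline itself cannot be told apart here. Each library holds all cells of a culture, in which fewer cells of a kind and less RNA per cell cannot be told apart.

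KLFs are transcription factors that bind GC boxes and CACCC boxes in DNA through C2H2 zinc fingers at the end of the protein, a domain shared with the Sp factors. Outside that domain they differ in the partners they recruit. KLF2, KLF4, KLF5, KLF6 and KLF7 are mostly known as activators that bind acetyltransferases, although KLF4 and KLF5 can also repress. KLF3 binds the corepressor CtBP, and KLF9, KLF10, KLF13 and KLF16 bind the corepressor Sin3. In fibroblasts several of the genes respond within hours to serum, growth arrest, TGF-beta or steroid hormones.

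The authors' deposited table holds 1 comparison of the groups and no value per library, so each level below is a fitted group level, set at the mean log2 CPM (CPM, counts scaled to a common library size) plus or minus 0.5 of the log2 fold change. The order of the KLF levels is given per kilobase of exon, and a rank by CPM or counts, which also grows with exon length, is named as such. The row of Cdx2 (mm10 chromosome 5, 147300900 to 147307249) stood at 612 CPM with doxycycline and 4.96 CPM with solvent. Reads of the transgene and of the cells' own Cdx2 gene cannot be told apart in that row. The mean effective library of about 45700000 counts put the members between 777 and 7957 counts per library. Of the fibroblast markers, 10 of 10 had reads, with a summed level of 6287 CPM with doxycycline and 7476 CPM with solvent. Of 9 tested, 6 were called lower, beside 13.4% of all genes tested. With the widened standard errors given below, 1 of them, Pdgfrb, was still called. The epithelial markers summed to 14.1 CPM with doxycycline and 25.5 CPM with solvent, nearly all of it Krt14, with Krt5 and Krt18 at 0 reads. The 2 tested, Cdh1 (log2 fold change -1.62) and Krt14 (-0.82), were called lower, also with the widened standard errors. The haematopoietic markers summed to 0.124 CPM with doxycycline and 0.137 CPM with solvent. The endothelial markers summed to 3.95 CPM with doxycycline and 4.62 CPM with solvent. The part of these shifts in the KLF values was not tested.

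With doxycycline, 7 of the 10 KLF genes were lower, 2 were higher and 1, Klf6, was not called. A call means that the authors' deposited table lists an adjusted p below 0.05. Over all 12355 genes tested, those that averaged 10 or more counts in a library, 24.7% were called, 11.3% higher and 13.4% lower. Among the 6124 genes with a mean CPM at or above that of Klf5, the lowest member in CPM, 26.7% were called, 9.54% higher and 17.2% lower. Since this comparison was known when the genes were picked, nothing is read from the distance between these shares. The median log2 fold change of the 10 genes was -0.30, beside -0.0011 over all genes tested. All changes were below 2-fold, and the largest was that of Klf4. Summed per kilobase of exon, the 10 genes reached 199 CPM with doxycycline and 261 CPM with solvent, a ratio of 0.761. The standard errors of the deposited table follow level and fold almost entirely (99.2% of the variance of their logarithm), so they carry little of each gene's own replicate spread. The sources read here do not name the terms the authors fitted besides the group, and a replicate block or other term would change what these errors, p-values and calls measure. With standard errors widened 2.08-fold, the robust SD of t over all genes, 4 members were still called, all lower (Klf2, Klf4, Klf9 and Klf13), beside 4.66% of all genes tested.

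**Figure D1:**
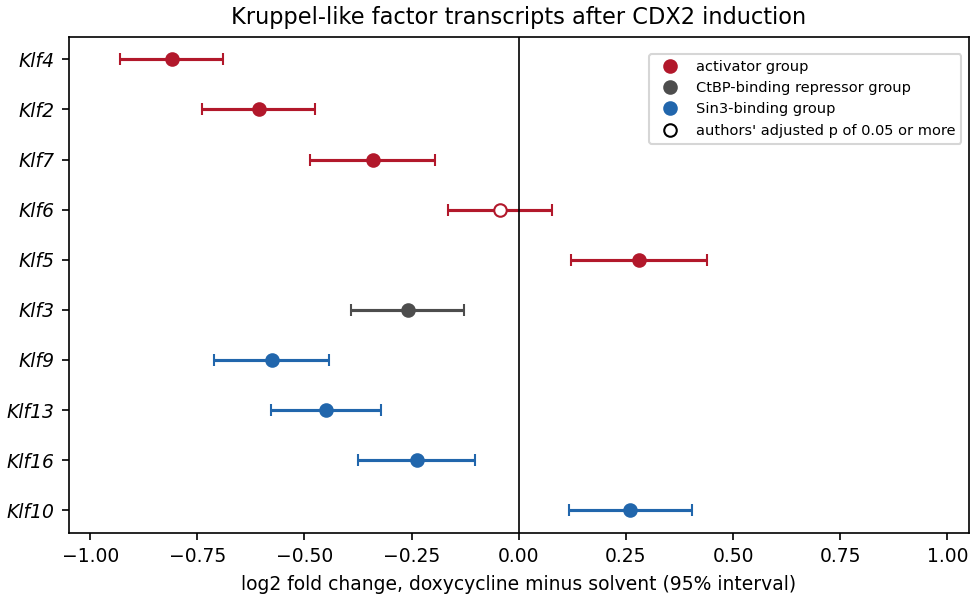
Log2 fold change (doxycycline minus solvent) of the 10 genes, grouped by known partners, with 95% intervals from the standard error of the authors' deposited table; the open symbol was not called. Klf4 lies lowest at -0.81, Klf5 and Klf10 lie above 0 at 0.28 and 0.26, and the interval of Klf6 includes 0.

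Of the activator group, 3 of 5 genes were called lower, 1 was called higher and 1 was not called in the authors' deposited table. Klf4, which is expressed in growth-arrested fibroblasts and in differentiating gut epithelium and is known from the reprogramming of fibroblasts to pluripotency, stood at 131 CPM with doxycycline and 231 CPM with solvent. It was 1.75-fold lower, and its log2 fold change of -0.81 ± 0.062 (± standard error, adjusted p 6.42e-37, mm10 chromosome 4, 55527137 to 55532475) in the authors' deposited table was the 228th lowest of the 12355 genes tested. Klf2, a factor of quiescent T cells and of endothelium under flow, stood at 47.2 CPM with doxycycline and 71.9 CPM with solvent. That is a 1.52-fold lower level, with a log2 fold change of -0.61 ± 0.067 (adjusted p 1.43e-17, chromosome 8, 72319062 to 72321654) in the authors' deposited table. Klf4 and Klf2 were thus the most reduced of the 10, and Klf4 lay below Klf2 by 0.20 on the log2 scale (95% interval of the difference 0.024 to 0.38). The pair was set by rank, and the interval uses standard errors as deposited, which carry little of each gene's replicate spread.

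Klf7, known from axon growth in neurons, stood at 19.9 CPM with doxycycline and 25.1 CPM with solvent. The authors' deposited table lists a log2 fold change of -0.34 ± 0.075 (adjusted p 8.01e-05, chromosome 1, 64035671 to 64121389). Klf5, a factor of proliferating cells in intestinal crypts, went the other way, with 18.7 CPM with doxycycline and 15.4 CPM with solvent. Its log2 fold change of 0.28 ± 0.081 (adjusted p 0.00571, chromosome 14, 99298691 to 99313409) in the authors' deposited table was the highest of the 10 genes. Klf6, an early response gene of injured liver, held 165 CPM with doxycycline and 170 CPM with solvent. Its log2 fold change of -0.044 ± 0.062 (adjusted p 0.873, chromosome 13, 5861489 to 5870393) in the authors' deposited table has a 95% interval from -0.17 to 0.078, so a fall the size of that of Klf4 or Klf2 lies outside it.

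The 250 bases upstream of the start site, from RefSeq's annotation of GRCm38.p6, are shown for the members with the 3 lowest fold changes, Klf4, Klf2 and Klf9, and for Klf6, the member nearest to 0. They lie at chr4:55532476-55532725 (minus strand), chr8:72318812-72319061 (plus strand), chr19:23140976-23141225 (plus strand) and chr13:5861239-5861488 (plus strand). Each is written 5′ to 3′ towards its gene, and capitals mark every match, on either strand, to 8 motifs. The GC box was searched as GGGCGG. The CACCC box was searched as CCNCNCCC. The TATA box was searched with the letters TATAAA, and the CCAAT box by those letters. For the CDX motif the letters searched were TTTATG, and for the CRE core they were TGACG. The CArG box and the MEF2 site were searched by their usual consensus.
Klf4: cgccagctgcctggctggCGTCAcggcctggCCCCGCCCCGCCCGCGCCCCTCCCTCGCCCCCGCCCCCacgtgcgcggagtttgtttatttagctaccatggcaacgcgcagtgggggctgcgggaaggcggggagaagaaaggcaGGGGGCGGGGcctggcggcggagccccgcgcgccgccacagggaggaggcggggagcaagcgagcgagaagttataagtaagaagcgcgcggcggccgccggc
Klf2: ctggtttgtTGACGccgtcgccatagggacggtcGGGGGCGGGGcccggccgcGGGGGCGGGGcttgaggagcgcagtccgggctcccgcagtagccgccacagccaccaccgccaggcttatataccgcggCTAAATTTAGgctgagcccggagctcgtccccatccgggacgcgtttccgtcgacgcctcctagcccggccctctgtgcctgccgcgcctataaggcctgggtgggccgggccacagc
Klf9: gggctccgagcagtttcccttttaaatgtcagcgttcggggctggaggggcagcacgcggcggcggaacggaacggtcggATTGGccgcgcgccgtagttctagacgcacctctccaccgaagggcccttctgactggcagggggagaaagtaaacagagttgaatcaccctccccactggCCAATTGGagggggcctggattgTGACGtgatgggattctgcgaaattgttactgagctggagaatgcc
Klf6: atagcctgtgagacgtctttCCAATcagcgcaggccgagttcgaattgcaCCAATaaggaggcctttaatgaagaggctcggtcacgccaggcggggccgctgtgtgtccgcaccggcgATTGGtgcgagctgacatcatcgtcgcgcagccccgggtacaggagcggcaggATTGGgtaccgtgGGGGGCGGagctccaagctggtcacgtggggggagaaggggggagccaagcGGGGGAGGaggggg

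Windows were matched for 7 members (Klf2, Klf3, Klf4, Klf6, Klf7, Klf9 and Klf13). Their share of G and C ran from 59.2% in Klf7 to 78.4% in Klf3, beside a median of 52.4% over 32851 upstream windows of the same length. Klf7 and Klf9 (59.6%) lay below the upper quartile of all windows, 61.2%, and the other members above it. A GC box stood in 6 of the 7 windows (32.7% of all windows) and a CACCC box in the same number (45.9%). The letters of these motifs overlap: in Klf4 4 GC boxes and 9 CACCC boxes merge into 2 runs of 48 bases in all, and in Klf2 2 GC boxes and 4 CACCC boxes merge into 2 runs of 20 bases. Klf9 was the 1 member window with neither motif. Klf9 held 3 CCAAT boxes, 2 of them sharing letters, and Klf6 held 4, whereas Klf4 and Klf2 held 0 (33.8% of all windows hold at least 1).

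A MEF2 site, the site of the factors through which the kinase ERK5 is known to act on Klf2, stood at -118 to -109 from the Klf2 start, and is found in 1.69% of all windows and in no other member window. The letters TTTATG, the core of the sequence that CDX proteins bind, were found in 1 of the 7 windows, that of Klf13, beside 10.8% of all windows. A CRE core stood in Klf2, Klf4, Klf9 and Klf13 (17.8% of all windows), and the letters TATAAA (12.4%) or a CArG box (1.47%) in 0 of the 7. The windows of Klf4 and Klf2 do hold the similar letters TATAAG close to the start site, which the search did not count. These matches describe the letters only, and a window without a match says nothing of sites further away.

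**Figure D2:**
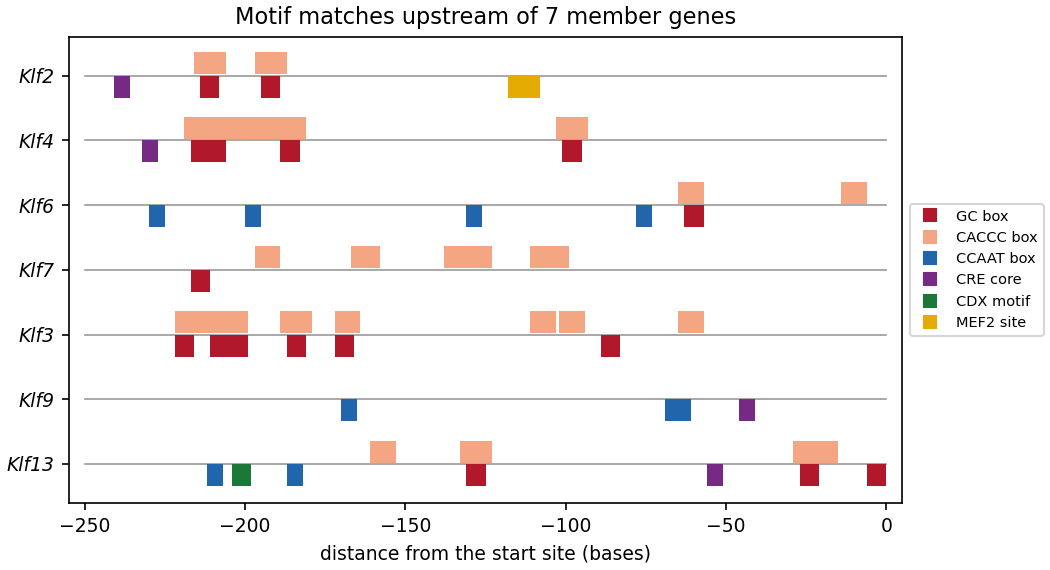
Motif matches on either strand in the 250 bases upstream of 7 member genes, by distance from the start site in bases; CACCC boxes are drawn above each line and the other motifs below it. Klf2 and Klf4 hold GC and CACCC boxes in the far part of the window and Klf4 holds more between -103 and -94, Klf9 holds neither, and the MEF2 site stands in Klf2 at -118.

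Klf3, the basic KLF that recruits CtBP in red cell and fat precursors, is the 1 member of its group among the 10. It stood at 47.2 CPM with doxycycline and 56.5 CPM with solvent. Its log2 fold change was -0.26 ± 0.067 (adjusted p 0.00146, chromosome 5, 64803523 to 64830129) in the authors' deposited table, a level 16.5% lower with doxycycline.

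Of the Sin3-binding group, 3 of 4 genes were called lower and 1 higher in the authors' deposited table. Klf9, which glucocorticoids and thyroid hormone induce in many tissues, stood at 38.5 CPM with doxycycline and 57.4 CPM with solvent. Its log2 fold change of -0.58 ± 0.068 (adjusted p 2.11e-15, chromosome 19, 23141226 to 23168128) in the authors' deposited table was close to that of Klf2, from which it differed by 0.030 (95% interval -0.16 to 0.22). Klf13, its close relative and a regulator of the chemokine gene Ccl5 in T cells, stood at 67.1 CPM with doxycycline and 91.8 CPM with solvent. Listed in the authors' deposited table was a log2 fold change of -0.45 ± 0.065 (adjusted p 2.52e-10, chromosome 7, 63886351 to 63938915).

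Klf16, a factor described at dopamine receptor genes, was the least reduced of the 7, with 38.1 CPM with doxycycline and 45.0 CPM with solvent. In the authors' deposited table its log2 fold change was -0.24 ± 0.070 (adjusted p 0.00643, chromosome 10, 80567121 to 80577296). Klf10, an early gene of TGF-beta signalling that is also named Tieg1, was the 1 gene of this group that was higher, with 31.2 CPM with doxycycline and 26.1 CPM with solvent. Its log2 fold change in the authors' deposited table was 0.26 ± 0.073 (adjusted p 0.00404, chromosome 15, 38294406 to 38300711). Both role groups with several members therefore held 3 lower genes and 1 higher gene, with median log2 fold changes of -0.34 in the activator group and -0.34 in the Sin3-binding group.

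The order of the 10 levels shifted little between groups. Per kilobase of exon, Klf4 stood highest in both groups, at 43.3 CPM with doxycycline and 75.9 CPM with solvent. Klf6 followed at 39.2 CPM with doxycycline and 40.4 CPM with solvent, and Klf2 was the third at 26.1 CPM with doxycycline and 39.7 CPM with solvent. Klf4 thus stood clear of Klf6 with solvent and close to it with doxycycline, and Klf2 stood level with Klf6 with solvent and below it with doxycycline. Klf4 held 21.8% of the summed level of the 10 genes with doxycycline and 29.1% with solvent, and Klf6 held 19.7% with doxycycline and 15.5% with solvent.

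At the lower end, Klf9 was the tenth of 10 with doxycycline, at 8.60 CPM per kilobase, and the eighth with solvent, at 12.8. Klf5 stood at 10.9 CPM per kilobase with doxycycline and 8.98 with solvent, and Klf10 at 10.2 with doxycycline and 8.55 with solvent. Over the mean of both groups, neighbouring levels lay apart by more than the 95% interval of their difference except Klf9 and Klf5, and Klf5 and Klf10. The closest pair counted as apart was Klf7 and Klf16, with a log2 difference of 0.10 (95% interval 0.0039 to 0.20). Those intervals use 0.5 times the standard error of the fold change as the error of a mean level, since no spread over libraries can be computed from the table.

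**Figure D3:**
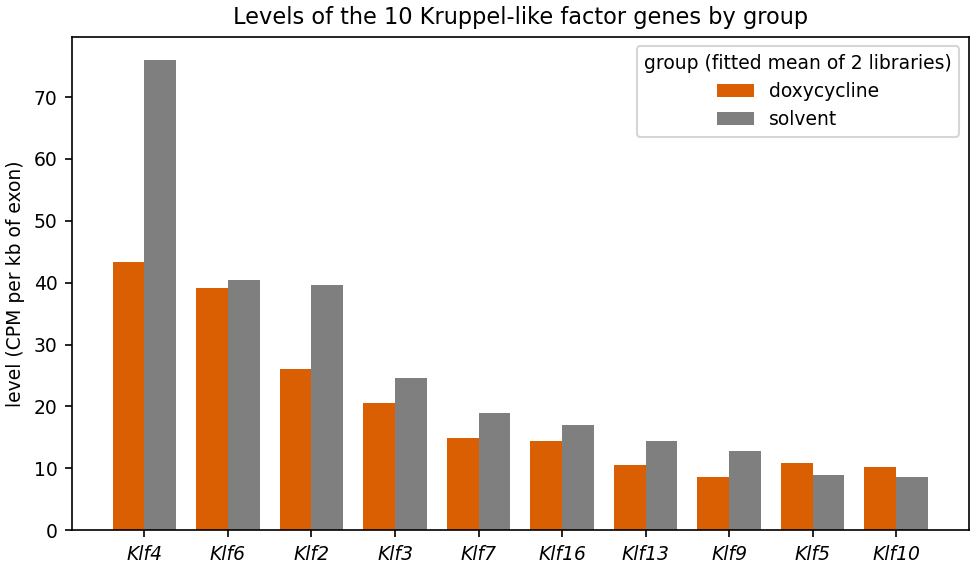
Fitted level of each of the 10 genes in CPM per kilobase of exon, doxycycline left of solvent, in order of the mean level; no error is drawn because the table gives none per group. The Klf4 bars stand at 43.3 with doxycycline and 75.9 with solvent, those of Klf6 at 39.2 and 40.4, and Klf5 and Klf10 alone have the taller bar with doxycycline.

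The 10 genes lie on 10 different chromosomes. Their transcribed spans run from 2593 bases in Klf2 to 85719 bases in Klf7, and the 4 genes lowest in fold change include short ones (Klf2 and Klf4, 5339 bases) and long ones (Klf9, 26903 bases, and Klf13, 52565 bases). For Klf3, Klf5 and Klf7, the deposited row counts 2303, 1718 and 1329 exon bases, where the matching GENCODE M21 transcripts have 5221, 3352 and 7662, so these 3 levels cover part of the exons. Klf10 has 3 rows, which share exons and therefore reads. Their log2 fold changes were 0.26 ± 0.073 (NM_013692), 0.26 ± 0.073 (NM_001357677) and 0.22 ± 0.082 (NM_001289471) in the authors' deposited table, all called higher, where 25.2% of the transcript rows above the count floor were called in either direction. The last of these rows runs to a different 3′ end (38291464) and had a lower level, 17.1 CPM with doxycycline and 14.6 CPM with solvent. The row of Klf13 overlaps E030018B13Rik on the opposite strand, which had a mean of 7.1 counts, and that of Klf9 holds Mir1192, with 3.4 counts, next to 3587 and 2148 counts of the 2 KLF genes. In GENCODE, Klf3, Klf7 and Klf13 also overlap noncoding genes that have no row in the table used here, and no source used here says whether counting used the strand.

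The other 7 KLF genes were low. Klf8, Klf14 and Klf17 had no reads in any library, and Klf1 and Klf15 stayed under the floor of 10 counts. Klf11, the Sin3-binding relative of Klf10, was the highest of them at 6.78 CPM with doxycycline and 5.61 CPM with solvent, with a log2 fold change of 0.27 ± 0.11 (adjusted p 0.0768) in the authors' deposited table. Its fold change equals those of Klf10 and Klf5 in size, but on fewer counts, and it was not called. For Klf12 the authors' deposited table lists -0.053 ± 0.16 (adjusted p 0.873). By the authors' limma test 0 of these 2 genes were called, beside 24.7% of all genes tested, and 1, Klf11, had an unadjusted p under 0.05.

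Of 9 Sp factors, which share the KLF zinc fingers and bind the same boxes, 4 were tested. The authors' limma test called 0 of the 4, beside 24.7% of all genes tested, and 4 genes are too few to set against the KLFs. Of the 4, 1, Sp2, had an unadjusted p under 0.05 (log2 fold change 0.17 ± 0.074, adjusted p 0.114, in the authors' deposited table). Sp1, the highest of them in CPM though not per kilobase of exon, where Sp3 was higher, stood at 127 CPM with doxycycline and 126 CPM with solvent, with a log2 fold change of 0.0083 ± 0.064 (adjusted p 0.930) in the authors' deposited table. Sp3 (-0.015 ± 0.066) and Sp4 (-0.0041 ± 0.11) lay as close to 0 in that deposited table.

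**Figure D4:**
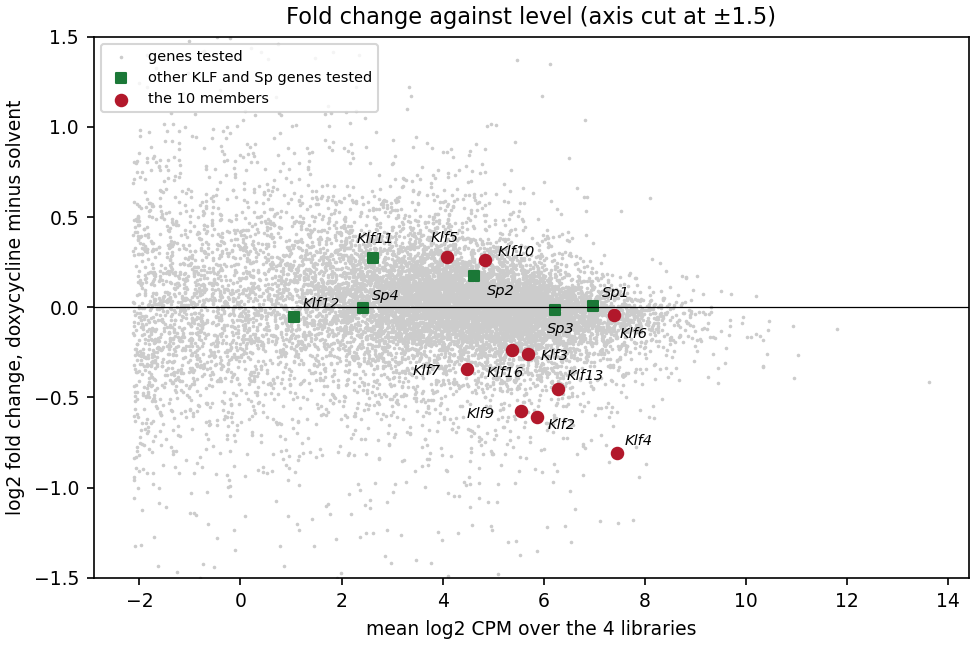
Log2 fold change (doxycycline minus solvent) against mean log2 CPM for the genes tested (grey), the 10 members (red) and the other tested KLF and Sp genes (green); the vertical axis ends at 1.5 in either direction, beyond which lie 68 genes. The red points of Klf4, Klf2, Klf9 and Klf13 lie below those of the other members, while Sp1, Sp3 and Sp4 lie on the zero line.

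Genes around the KLFs were taken from lists of partners, regulators and targets. Of 12 corepressor and coactivator genes tested, the authors' deposited table has 3 that rose, 0 that fell and 9 uncalled (median log2 fold change 0.068, 1 lower at an unadjusted p under 0.05 by the same limma test). That is 25% called, near the 24.7% of all genes tested. The lists were chosen with earlier results of these data known, so nothing is read from such shares. The acetyltransferase genes Ep300 (0.26 ± 0.064) and Kat2b (0.31 ± 0.080) and the deacetylase gene Hdac1 (0.22 ± 0.069) rose in the authors' deposited table, with 0 of the 3 called under widened standard errors. Crebbp, the uncalled gene with the highest CPM (per kilobase of exon Ctbp1 was higher), stood at -0.047 ± 0.062 in the authors' deposited table. Of 9 ubiquitin ligase genes whose products act on KLF proteins, 4 fell, 1 rose and 4 were uncalled (55.6% called, median -0.070). Smurf2 (-0.44 ± 0.065), Smurf1 (-0.44 ± 0.066) and Fbxw7 (-0.28 ± 0.078) fell and Vhl (0.42 ± 0.084) rose in the authors' deposited table, while Itch stood at 0.037 ± 0.069. With widened standard errors, Smurf1 and Smurf2 were the 2 called.

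The kinase cascade of ERK5 and its MEF2 factors is known to switch on Klf2 and Klf4 in endothelium. Of its genes, the authors' limma test called 0 of 7 tested in either direction, beside 24.7% of all genes tested. An unadjusted p under 0.05 was seen for 2 of them, and the median log2 fold change was 0.030. Map3k3, the highest of them in CPM, stood at 73.6 CPM with doxycycline and 72.1 CPM with solvent. Klf9 belongs to the glucocorticoid and thyroid hormone response. The receptor and response genes listed for these hormones had 4 falls, 1 rise and 3 uncalled among 8 tested in the authors' deposited table (median -0.29). That is 62.5% called, beside 24.7% of all genes tested. The kinase gene Sgk1 stood at 91.5 CPM with doxycycline and 208 CPM with solvent (-1.18 ± 0.063). The receptor gene Nr3c1 (-0.73 ± 0.065), the phosphatase gene Dusp1 (-0.54 ± 0.069) and the chaperone gene Fkbp5 (-0.42 ± 0.071) also fell in the authors' deposited table, and the thyroid hormone receptor gene Thra stood at 0.097 ± 0.075. The 1 called rise was that of Per1 (0.26 ± 0.076 in the authors' deposited table). Also uncalled there were Tsc22d3 (-0.15 ± 0.079) and the thyroid hormone receptor gene Thrb (0.35 ± 0.17). Sgk1, Nr3c1 and Dusp1 were still called with widened standard errors, whereas Fkbp5 and Per1 were not.

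TGF-beta pathway genes, of which Klf10 is an early target, had 2 rises and 0 falls among 8 tested in the authors' deposited table (median -0.023, with 0 lower at an unadjusted p under 0.05 by limma). The other 6 were uncalled, and the share called, 25%, was near the 24.7% of all genes tested. The ligand gene Tgfb1 stood at 24.6 CPM with doxycycline and 13.8 CPM with solvent, a rise of 0.83 ± 0.081 on the log2 scale in the authors' deposited table. The target gene Skil (0.63 ± 0.072) rose there as well, and both were still called with widened standard errors. Smad4, the shared mediator, stood at -0.013 ± 0.066 there. Of 10 textbook KLF target genes tested, the authors' deposited table has 3 that rose, 2 that fell and 5 uncalled (50% called, median 0.051). Thbd, which encodes thrombomodulin and is activated by KLF2 and KLF4 in endothelium, stood at 20.4 CPM with doxycycline and 47.2 CPM with solvent, a 2.31-fold lower level. Cdkn1a, which encodes the cell cycle inhibitor p21 and is activated by KLF4 and KLF6, stood at 144 CPM with doxycycline and 94.2 CPM with solvent (0.61 ± 0.064 in the authors' deposited table). S1pr1, a sphingosine phosphate receptor gene that KLF2 activates in T cells, rose (0.69 ± 0.17), as did the growth factor gene Pdgfa, a target of KLF5 (0.29 ± 0.068), and Lgals3 stood at 0.0069 ± 0.062, in the authors' deposited table. Ccnd1, the other gene of this list called lower, stood at -0.16 ± 0.059 in the authors' deposited table. Whether any of these values follows the KLF levels was not tested. With widened standard errors, Thbd and Cdkn1a were the 2 called.

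**Figure D5:**
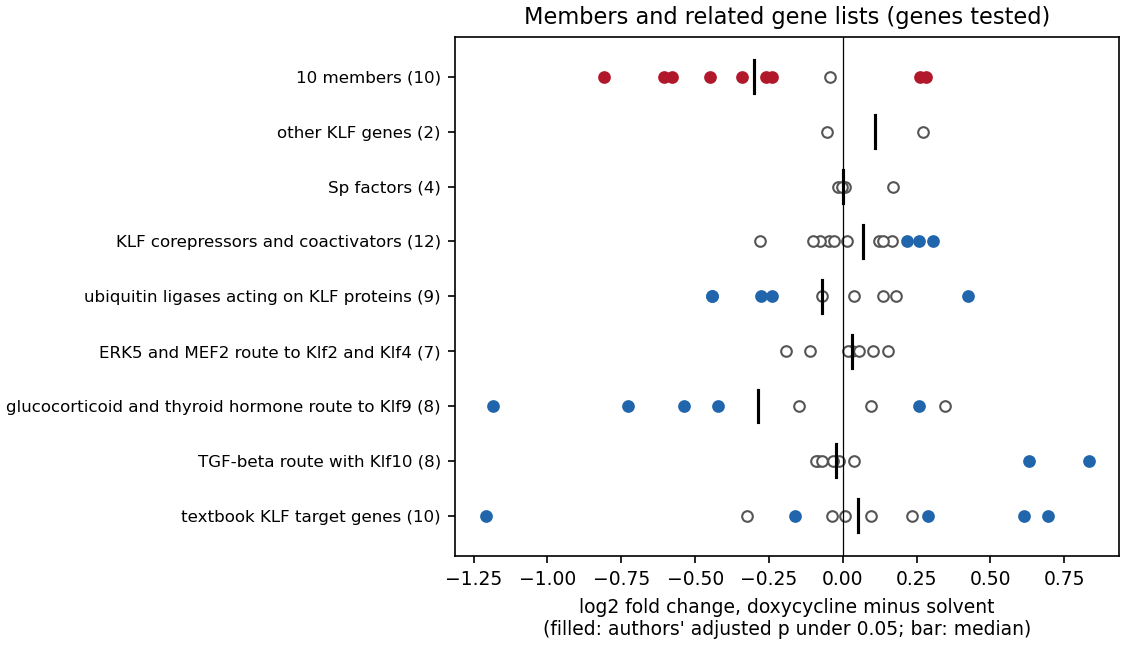
Log2 fold change (doxycycline minus solvent) of the tested genes of each list, with the number tested in brackets, filled where the authors' adjusted p was under 0.05, and the median as a bar. The median of the 10 members lies at -0.30 and that of the hormone response list at -0.29, while those of the Sp factors and of the ERK5 and MEF2 list lie near 0.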

How the data were processed

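Nuclear RNA was sequenced in 4 directional libraries, 2 with doxycycline and 2 with solvent, grouped by the sample titles. Tools named in the submitters' processing notes, without roles, are HOMER 4.10, STAR 2.7.1a, limma, edgeR, Picard and SAMtools 1.10, and the build is mm10. The authors deposited 1 comparison table, which gives per RefSeq transcript the log2 fold change, the mean log2 level, the t score, the p-value and its adjusted value, per the file headers, and other columns with start, end and exon length in bases. It gives no value per library, so the counts-based fit of the plan was not possible and the authors' own limma test took its place; the terms of that model are not given in the sources read here. The library size was taken from the 9211 rows at the lowest mean level, read as no reads with 0.5 added per library.

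For each gene the transcript with the highest mean level was used, and standard errors are the log2 fold change divided by t. Intervals at 95% assume normal errors. Genes that averaged 10 or more counts (0.230 CPM) were tested, and those with the authors' adjusted p below 0.05 were called. The members, gene lists and tests were chosen with earlier results of these data known. Named genes are all members, and the one highest in mean CPM and any called of the other KLF and Sp genes. Of each other list they are up to 4 called genes with the smallest p and the uncalled one highest in mean CPM. Further genes (Ccnd1, Ctbp1, Klf1, Klf8, Klf12, Klf14, Klf15, Klf17, Per1, Sp2, Sp3 and Sp4) were named after their values were seen. The same holds for the markers Cdh1, Krt5, Krt14, Krt18 and Pdgfrb and for Thrb and Tsc22d3 of the hormone list. Exons were matched to GENCODE M21 (GRCm38) and upstream sequence to RefSeq (GRCm38.p6). Protein sequences were not used here. A gene of the TGF-beta list is not reported here. The adjustment and the centring were tested on simulated data. Python 3.11.15, pandas 2.3.3, scipy 1.17.1 and statsmodels 0.14.6 were used.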

Additional observations from a re-analysis of the deposited data

How the results depend on the processing

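Of the 10 members, 9 were called in the authors' deposited table, and 9 again with p adjusted over the genes tested, with no floor, with a floor of 50 counts, with the transcript of the longest exon length, with fold changes centred on the median and with the trend of fold change with level removed, the last chosen after seeing the data. Of all genes, the shares called were 24.7% as deposited and, in the order of these settings, 27.5%, 13.1%, 26.5%, 24.7%, 27.5% and 26.4%. Over every transcript row of the members, 11 of 12 were called, beside 25.2% of the transcript rows above the count floor. With standard errors multiplied by 2.08, the robust SD of t, 4 members were called, 0 higher and 4 lower, and 576 of 12355 genes, where 3047 were called as deposited; Klf3, Klf5, Klf7, Klf10 and Klf16 were the 5 members no longer called. The multiplier includes true differences between groups and is no estimate of the spread between replicates. The sign of a member changed once: Klf6 stood at 0.033 with the trend removed, still not called. No paired analysis was possible because the table holds no values per library; for the same reason leaving out each replicate, the DESeq2 alternative and TMM scaling were not run. Depth limits little here, since the member with the fewest counts had a mean of 777.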
